A study of Mus musculus with 8 samples.

Results

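The NF-κB transcription factors and the IκB proteins that hold them back were followed at the RNA level in mouse bone marrow-derived macrophages left unstimulated or driven to the M1 or M2 state. The genes were a set of 10 chosen by name (NF-κB subunits, cytoplasmic IκB proteins and the nuclear IκB proteins Nfkbiz and Bcl3), and every probe set that the array annotation gives to 1 of their symbols was taken. This gave 18 probe sets of 9 genes (5 of Nfkbia, 3 of Nfkbiz, 2 each of Nfkb2, Nfkbib and Nfkbie, and 1 each of Rel, Rela, Relb and Bcl3) among 45037 probe sets and 18193 named genes. The other gene is not analysed here.

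Macrophages were grown from bone marrow of wild-type C57BL/6J mice in L929 supernatant, a source of M-CSF, washed on day 7 and replated without it. They then stayed in media alone (M0), or received LPS (100 ng/ml) plus IFN-γ (20 ng/ml) for the M1 state, or IL-4 (20 ng/ml) for the M2 state, and RNA was collected after 24 hours. Affymetrix mouse expression arrays were available for 3 M0, 3 M1 and 2 M2 samples. The labels call the arrays biological replicates, while the methods speak of independent mice and also of in vitro replicates. So n counts arrays, and the p-values measure the spread between these arrays, which may be partly technical. The age and sex of the mice are not given in the sources used here, and the cells were a bulk culture at a single time.

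NF-κB is a family of dimeric transcription factors. In resting cells IκB proteins keep most dimers in the cytoplasm, and signals such as LPS through Toll-like receptors activate the IκB kinase, which marks the IκB proteins for destruction and frees the dimers to enter the nucleus. A slower arm processes the p100 protein made from Nfkb2 to p52, which pairs with RelB. Several subunits and inhibitors are themselves NF-κB target genes, so the pathway feeds back on its own parts, and the nuclear IκB proteins IκBζ (Nfkbiz) and Bcl-3 act on chromatin together with NF-κB rather than holding it in the cytoplasm. An array measures the RNA of these genes and neither the protein nor its place in the cell.

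Since κB motifs near their starts are the textbook feature of the feedback genes, the 250 bases before the annotated start are shown for the 4 members whose window held a match to the κB consensus, written 5′ to 3′ on the strand of the gene. The sequences are RefSeq's for build GRCm38.p6, and capitals mark the matches, searched on both strands with overlapping matches counted. The windows are chr19:46304487-46304736 on the plus strand for Nfkb2 (the first of its 3 windows), chr11:23770970-23771219 on the minus strand for Rel, chr12:55492648-55492897 on the minus strand for Nfkbia and chr17:45555450-45555699 on the plus strand for Nfkbie.
Nfkb2: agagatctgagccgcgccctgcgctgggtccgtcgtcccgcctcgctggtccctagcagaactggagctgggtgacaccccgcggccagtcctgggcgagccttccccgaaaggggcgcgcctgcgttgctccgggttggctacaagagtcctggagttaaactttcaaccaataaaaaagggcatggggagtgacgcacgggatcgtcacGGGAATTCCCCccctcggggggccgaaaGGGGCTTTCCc
Rel: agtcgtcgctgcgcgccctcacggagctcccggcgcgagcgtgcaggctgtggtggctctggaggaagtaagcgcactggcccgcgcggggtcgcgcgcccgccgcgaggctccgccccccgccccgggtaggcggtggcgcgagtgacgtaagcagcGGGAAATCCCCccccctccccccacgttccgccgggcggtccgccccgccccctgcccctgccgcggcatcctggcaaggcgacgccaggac
Nfkbia: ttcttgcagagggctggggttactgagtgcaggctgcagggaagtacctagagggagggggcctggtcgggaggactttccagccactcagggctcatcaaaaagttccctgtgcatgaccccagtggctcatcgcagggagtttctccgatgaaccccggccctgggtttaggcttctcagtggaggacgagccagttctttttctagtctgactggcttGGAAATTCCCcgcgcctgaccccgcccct
Nfkbie: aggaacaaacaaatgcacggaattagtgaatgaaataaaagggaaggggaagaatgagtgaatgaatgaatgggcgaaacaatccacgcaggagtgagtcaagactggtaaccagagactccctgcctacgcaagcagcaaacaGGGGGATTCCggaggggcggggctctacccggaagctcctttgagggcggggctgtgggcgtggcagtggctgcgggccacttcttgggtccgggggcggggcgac
The matches began 39, 38 and 11 bases before the start in Nfkb2 (the first pair overlap), 92 and 91 bases before it in Rel (overlapping), 29 bases before it in Nfkbia and 106 bases before it in Nfkbie. The 7 member genes with an entry had 9 windows, and 6 of these windows, of 4 genes, held a match. Relb and Nfkbiz had no entry and were not searched. The other windows of Nfkb2 held 1 match each, and the windows of Rela, Nfkbib and Bcl3 held none. Over all promoters of the same length, 2382 of 32851 windows (7.25%) held a match. A match is a description of letters in the window and not a measured binding site.

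The authors deposited RMA intensities as linear values (units in what follows), and differences are given on the log2 scale, where 1 is a doubling. Array medians lay between 38.9 and 40.4 units. Log2 intensities over all probe sets correlated at 0.994 to 0.997 within a condition, at 0.972 to 0.980 between M0 and M1, at 0.980 to 0.983 between M0 and M2 and at 0.965 to 0.971 between M1 and M2. All 8 macrophage markers examined were above 64 units on every array. Of the markers of other cells, above 64 units on every array were 1 of 6 for B cells (Ighm), 1 of 4 for dendritic cells (Flt3) and none of 6 for T cells, 6 for neutrophils, 4 for NK cells and 5 for fibroblasts. The summed B cell markers stood at 741 to 950 units in M0, 286 to 314 in M1 and 336 to 342 in M2, and the summed macrophage markers at 78572 to 81228, 75999 to 77619 and 53163 to 56861. The B cell sum was mostly Ighm (583, 105 and 133 units on average), with Cd79a and Ms4a1 near or below the array medians. Cd79b was, like Ighm, highest in M0 (85.0, 47.0 and 55.0 units on average). The part of these shifts in the results below was not tested, and in bulk RNA fewer cells of a type and less RNA per cell cannot be told apart.

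In M1 macrophages 8 of the 9 NF-κB and IκB genes rose on at least 1 probe set. Compared with M0, 15 of the 18 probe sets passed as higher (limma, Benjamini-Hochberg adjusted p under 0.05), against 10.2% of all probe sets, and none passed as lower, also against 10.2%. None was lower at an unadjusted p under 0.05 or in the methods' t-test either. Of the 15, 12 changed at least 2-fold (4.56% of all probe sets passed with that change, and 20.4% passed in either direction). The M1 and M0 arrays did not overlap for 16 of the 18, against 35.0% of all probe sets. Rela was the gene without a passing probe set. In M2 macrophages most members did not pass: 3 probe sets of 2 genes (Rel and Nfkbie) were higher, against 6.32% of all probe sets, 3 of 1 gene (Nfkbiz) were lower, against 5.85%, and 12 did not pass. All 6 changed at least 2-fold (2.85% of all probe sets passed with that change, 12.2% in either direction), and 7 of the 18 had M2 and M0 arrays that did not overlap, against 41.1% of all probe sets. Both comparisons use the same M0 arrays. Set directly against each other, M1 exceeded M2 for 13 probe sets of 6 genes, against 8.87% of all probe sets, and fell below it for 1, Rel, against 10.1%; 11 changed at least 2-fold (5.59% of all probe sets, and 19.0% passed in either direction). The M1 and M2 arrays did not overlap for 16 of the 18, against 41.1%.

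**Figure D1:**
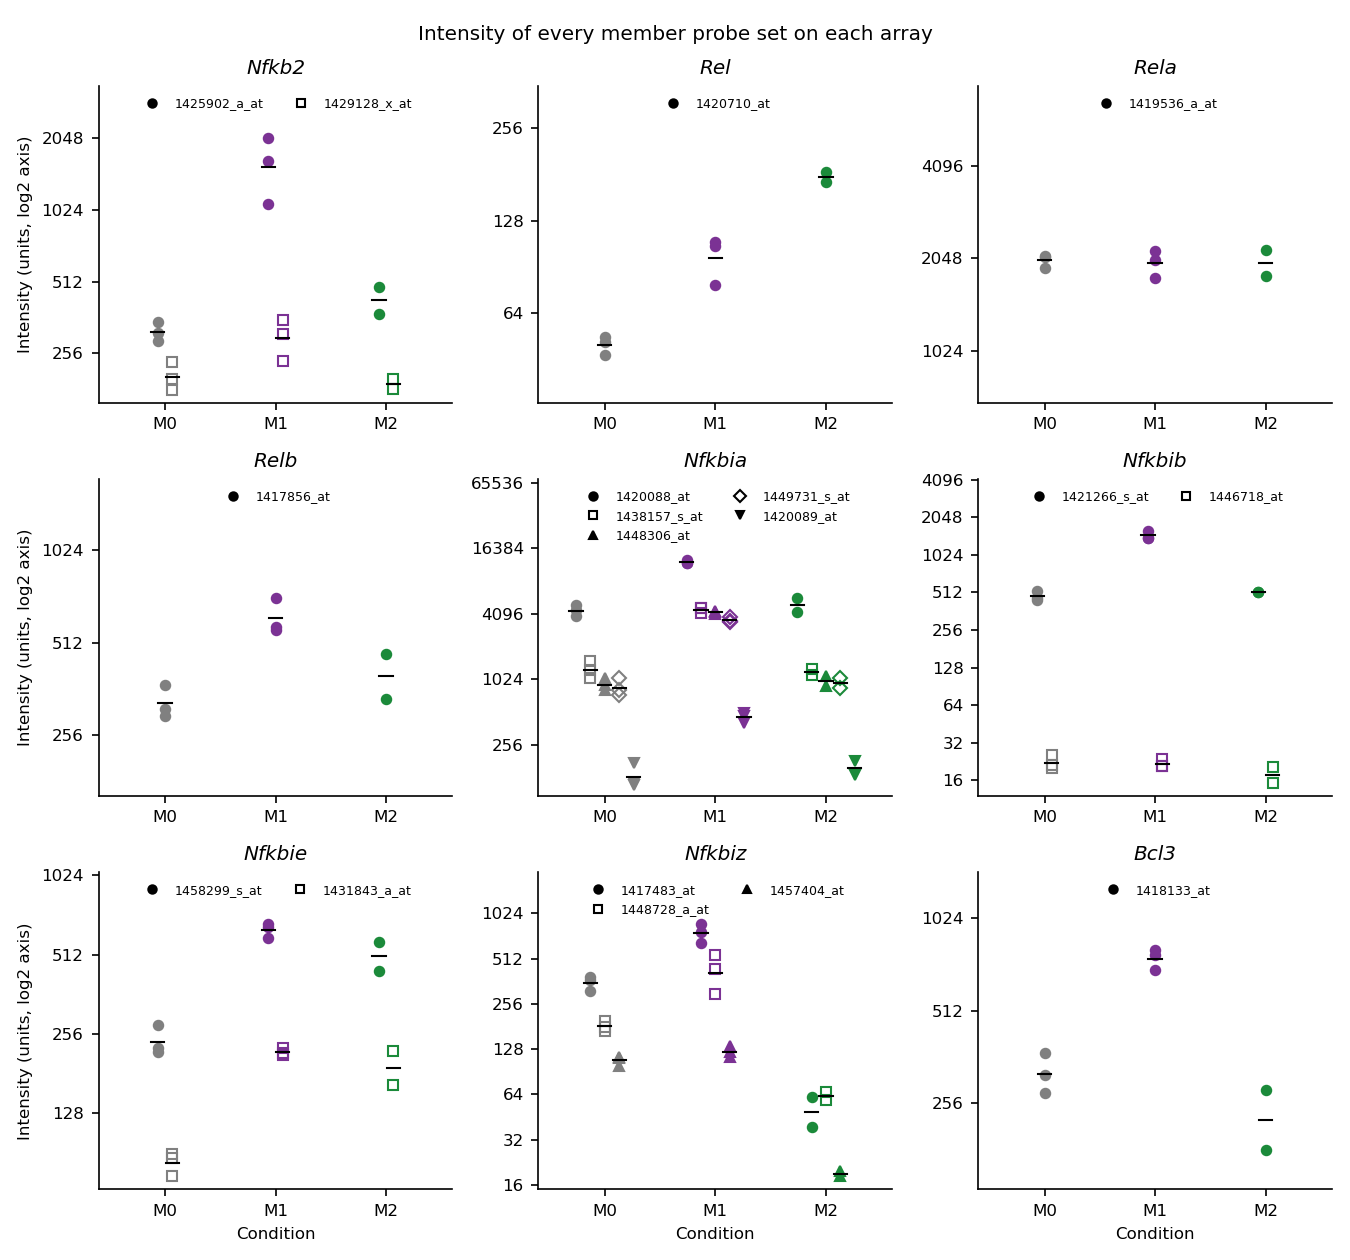
Intensity in units (log2 axis, each panel with its own range) of all 18 probe sets in M0 (grey, 3 arrays), M1 (purple, 3 arrays) and M2 (green, 2 arrays), one panel per gene. Each point is an array, symbols tell probe sets apart and black bars are geometric means; Rela stayed between 1770 and 2189 units, Rel was highest in M2 at 171 and 184 units, and Nfkbiz was lowest there on all 3 probe sets.

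Among the subunits, Nfkb2, which encodes p100 and p52, showed the largest rise in M1. Its brighter probe set read 346, 290 and 311 units in M0, 1643, 1084 and 2051 in M1, and 374 and 488 in M2. All M1 arrays lay far above the rest, and both M2 arrays lay just above the M0 arrays. The means were 316 ± 28.1 (SD, n = 3) in M0, 1593 ± 485 (n = 3) in M1 and 431 ± 80.8 (n = 2) in M2. M1 exceeded M0 by 2.29 on the log2 scale (SE 0.19, limma adjusted p = 4.3e-06), a 4.89-fold difference, and exceeded M2 by 1.85 (SE 0.22, adjusted p = 5.6e-05). M2 minus M0 was 0.44 (SE 0.22, adjusted p = 0.25) with a 95% interval of -0.03 to 0.92, so the order of M2 and M0 was not settled beyond their spread.

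The dimmer Nfkb2 probe set (of a kind that can also bind related transcripts) moved less. It read 235, 180 and 201 units in M0, 310, 239 and 353 in M1, and 200 and 182 in M2. The M1 arrays were above all others, by a narrow margin for M1 replicate 2. M1 minus M0 was 0.54 (SE 0.15, limma adjusted p = 0.020) and M1 minus M2 was 0.64 (SE 0.16, adjusted p = 0.016). Single arrays decided these calls. The first missed the threshold without M0 replicate 2 (0.45, limma adjusted p = 0.099), M0 replicate 3 (0.53, adjusted p = 0.058), M1 replicate 1 (0.51, adjusted p = 0.069) or M1 replicate 3 (0.41, adjusted p = 0.086). The second missed it without M1 replicate 1 (0.61, limma adjusted p = 0.052), M1 replicate 3 (0.51, adjusted p = 0.051), M2 replicate 1 (0.71, adjusted p = 0.056) or M2 replicate 2 (0.57, adjusted p = 0.11). Neither passed with intensities under 64 units raised to 64 (limma adjusted p = 0.17 and 0.15).

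Relb, the partner of p52 in the slower arm, rose in M1 too, by less. Its probe set read 374, 296 and 311 units in M0, 564, 576 and 716 in M1, and 337 and 472 in M2. The M1 arrays did not overlap those of M0 or M2, while M2 overlapped M0. Relb in M1 was above M0 by 0.92 (SE 0.15, limma adjusted p = 0.00066). M2 minus M0 was 0.29 (SE 0.17, adjusted p = 0.33, 95% interval -0.07 to 0.65). M1 exceeded M2 by 0.63 (SE 0.17, limma adjusted p = 0.018), a call that was lost without M1 replicate 3 (0.52, adjusted p = 0.060) or M2 replicate 1 (0.38, adjusted p = 0.22), and with intensities under 64 units raised to 64 (adjusted p = 0.17).

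Rel, which encodes c-Rel, the subunit best known from lymphocytes and from cytokine genes such as Il12b, was the member whose own level was highest in M2. Its probe set read 46.7, 51.6 and 53.5 units in M0, 79.0, 109 and 106 in M1, and 171 and 184 in M2. The 3 conditions did not overlap, in the order M0, M1, M2. Rel in M1 was above M0 by 0.94 (SE 0.13, limma adjusted p = 0.00019) and M2 exceeded M0 by 1.81 (SE 0.14, adjusted p = 4.7e-06). The direct difference, M1 minus M2, was -0.87 (SE 0.14, limma adjusted p = 0.00083). The M0 values stood only a little above the array medians. With intensities under 64 units raised to 64 the rise in M1 no longer passed (0.60, limma adjusted p = 0.055), while that in M2 did (1.47, adjusted p = 0.011).

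Rela, which encodes p65, the main activating subunit, had similar RNA levels in the 3 states. Its probe set read 2064, 2088 and 1914 units in M0, 1770, 2032 and 2158 in M1, and 1800 and 2189 in M2, so the groups overlapped fully. M1 minus M0 was -0.03 (SE 0.11, limma adjusted p = 0.91, 95% interval -0.28 to 0.22). M2 minus M0 was -0.03 (SE 0.13, limma adjusted p = 0.94, interval -0.30 to 0.25). These intervals leave room for changes of up to about 0.30 on the log2 scale.

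Each of the 3 cytoplasmic inhibitor genes rose in M1 on at least 1 probe set. Nfkbia encodes IκBα, the inhibitor that is destroyed and remade fastest after a signal, and all 5 of its probe sets were higher in M1 than in M0, by 1.49 to 2.21. The probe set with the largest difference read 1058, 898 and 811 units in M0, 4230, 4101 and 4378 in M1, and 895 and 1109 in M2. M1 stood apart from both other states, which overlapped. M1 exceeded M0 by 2.21 (SE 0.12, limma adjusted p = 1.2e-07), 4.62-fold, and M2 by 2.09 (SE 0.14, adjusted p = 3.3e-07). M2 minus M0 was 0.12 (SE 0.14, limma adjusted p = 0.67, 95% interval -0.18 to 0.42).

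The other Nfkbia probe sets repeated the order. The brightest read 4943, 4397 and 3891 units in M0, 11943, 12092 and 12887 in M1, and 4271 and 5737 in M2, with M1 above M0 by 1.49 (SE 0.13, limma adjusted p = 4.9e-06) and above M2 by 1.31 (SE 0.14, adjusted p = 3e-05). On the other 3, M1 exceeded M0 by 1.83, 2.07 and 1.82, and M2 by 1.90, 1.93 and 1.55. On each of the 5 probe sets the lowest M1 array lay above the highest M0 and M2 arrays. M2 minus M0 ran from -0.07 to 0.27 and passed on none of the 5 in limma.

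Nfkbib encodes IκBβ, a related inhibitor that is remade more slowly. Its brighter probe set read 530, 444 and 460 units in M0, 1398, 1407 and 1595 in M1, and 514 and 520 in M2. M1 was well apart, and the M2 arrays fell within the M0 range. The rise in M1 over M0 was 1.62 (SE 0.11, limma adjusted p = 4.4e-07) and that over M2 was 1.50 (SE 0.12, adjusted p = 1.7e-06), and M2 minus M0 was 0.12 (SE 0.12, adjusted p = 0.62, 95% interval -0.14 to 0.37). The dimmer probe set read 15.2 to 25.5 units, below the array median on every array, and passed in no comparison.

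Nfkbie encodes IκBε, an inhibitor induced late after a signal, and was the inhibitor that also rose in M2. On the brighter probe set it read 277, 218 and 227 units in M0, 594, 653 and 670 in M1, and 444 and 574 in M2. On the dimmer probe set it read 89.1, 73.5 and 86.7 units in M0, 213, 216 and 227 in M1, and 163 and 221 in M2. All arrays of both stimulated states lay above all M0 arrays, and M1 and M2 lay close together. Over M0, M1 was higher by 1.41 (SE 0.13, limma adjusted p = 6.8e-06) and 1.40 (SE 0.13, adjusted p = 6.8e-06) on the brighter and the dimmer probe set, and M2 exceeded M0 by 1.08 (SE 0.14, adjusted p = 0.00032) and 1.20 (SE 0.14, adjusted p = 0.00013). M1 minus M2 was 0.34 (SE 0.14, limma adjusted p = 0.14, 95% interval 0.03 to 0.65) and 0.20 (SE 0.14, adjusted p = 0.41, interval -0.11 to 0.51), so a difference between the stimulated states did not pass.

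**Figure D2:**
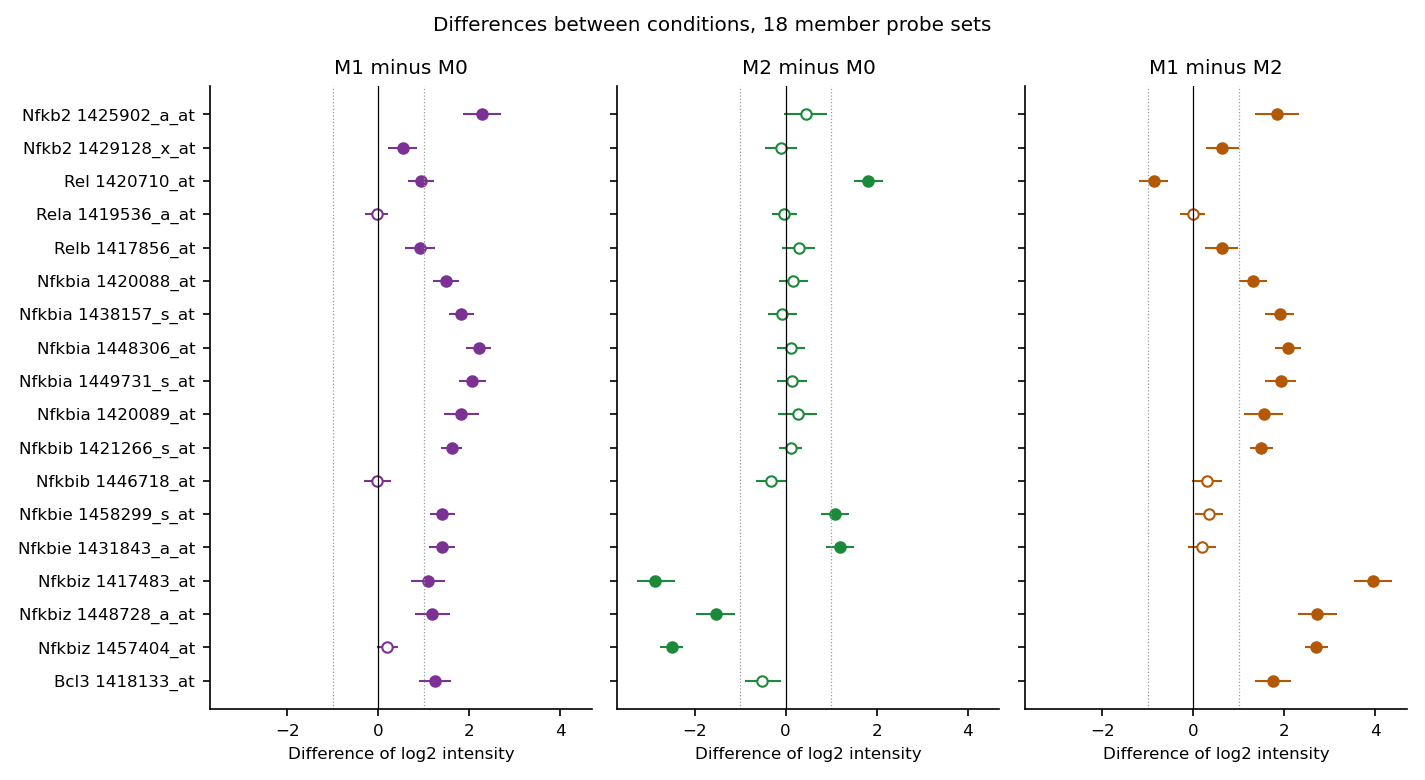
Difference of log2 intensity for the 18 probe sets in M1 minus M0, M2 minus M0 and M1 minus M2 (8 arrays in one limma fit). Filled points passed at an adjusted p under 0.05 and open points did not, bars are 95% intervals before adjustment, dotted lines mark a 2-fold change; M1 minus M0 has 15 filled points above 0, M2 minus M0 has 3 above and 3 below.

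The nuclear IκB protein IκBζ, encoded by Nfkbiz, is scarce in most resting cells, is induced by Toll-like receptor signals and is needed for secondary response genes such as Il6 and Lcn2. Its RNA moved in opposite directions in the 2 states. On its brightest probe set it read 371, 386 and 312 units in M0, 771, 647 and 871 in M1, and 38.9 and 61.8 in M2. The 3 conditions were fully separate, in the order M2, M0, M1. M1 exceeded M0 by 1.09 (SE 0.17, limma adjusted p = 0.00046), and M2 minus M0 was -2.86 (SE 0.19, adjusted p = 1e-06). M1 minus M2 was 3.95 (SE 0.19, adjusted p = 2.3e-08), the largest difference of any member.

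The other Nfkbiz probe sets showed the same fall in M2 and differed on M1. On the probe set next in brightness the values were 169, 196 and 180 units in M0, 437, 298 and 543 in M1, and 66.4 and 58.5 in M2, with M1 minus M0 at 1.19 (SE 0.18, limma adjusted p = 0.00037) and M2 minus M0 at -1.54 (SE 0.20, adjusted p = 0.00025). On the dimmest they were 114, 112 and 98.1 in M0, 123, 134 and 114 in M1, and 18.2 and 19.8 in M2, with M2 minus M0 at -2.50 (SE 0.12, adjusted p = 6.5e-08). M1 minus M0 did not pass there, at 0.20 (SE 0.11, limma adjusted p = 0.24, 95% interval -0.03 to 0.43). The M2 values of this dimmest probe set lay below the array median and 1 M2 value of the brightest did too, so the size of the fall depends on dim values. With intensities under 64 units raised to 64 it was -2.47, -1.48 and -0.75, from the brightest to the dimmest probe set, and still passed on each (limma adjusted p = 0.0034, 0.046 and 0.020).

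Bcl3 encodes a nuclear IκB protein that binds p50 and p52 dimers on DNA. Its probe set read 373, 316 and 276 units in M0, 776, 807 and 693 in M1, and 180 and 282 in M2. M1 stood apart from both other states, and 1 of the M2 arrays lay below all M0 arrays. Bcl3 in M1 was above M0 by 1.25 (SE 0.16, limma adjusted p = 0.00013) and M2 by 1.75 (SE 0.18, adjusted p = 1.9e-05). M2 minus M0 was -0.51 (SE 0.18, limma adjusted p = 0.10, 95% interval -0.90 to -0.11), and it passed as lower without M2 replicate 2 (-0.83, adjusted p = 0.017).

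**Figure D3:**
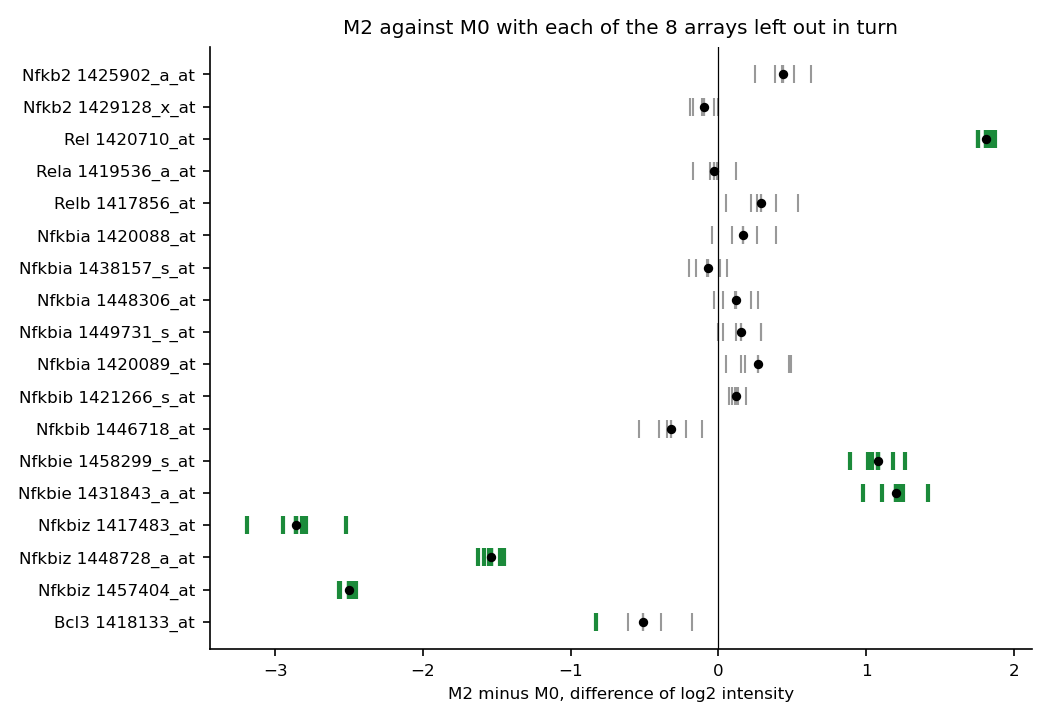
M2 minus M0 (difference of log2 intensity) for the 18 probe sets with all 8 arrays (black dot) and with each array left out in turn (ticks, green where the adjusted p was under 0.05 and grey where it was not). The ticks of Rel, both Nfkbie and all 3 Nfkbiz probe sets were green throughout, and Bcl3 passed in 1 of its 8 refits.

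The genes around the family were read from lists written from general knowledge, with the brightest probe set of each gene. Of a list of mainly kinases and adaptors upstream of NF-κB, 25 of 30 entries were found, and 10 rose in M1, against 13.7% of all genes, none fell, against 11.5%, and 15 did not pass. The methods' t-test also gave no fall. The median difference was 0.25, against 0.016 over all genes. The list also holds Nfkbid, which encodes the nuclear IκB protein IκBNS and did not pass in M1 (0.21, limma adjusted p = 0.32) or in M2 (0.02, adjusted p = 0.96). Birc3 (1.84, limma adjusted p = 1.9e-06) and Birc2 (0.62, adjusted p = 0.00044), which encode ubiquitin ligases, and the adaptors Traf2 (1.46, adjusted p = 5e-06) and Traf5 (0.57, adjusted p = 0.0019) rose. So did the receptor-proximal Irak2 (1.33, limma adjusted p = 1.2e-05) and Ikbkg (0.58, adjusted p = 0.0013), the regulatory subunit of the IκB kinase. Myd88, the shared adaptor of most Toll-like receptors, stood at -0.12 (limma adjusted p = 0.63) and did not pass.

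In M2 4 of these 25 genes rose, against 8.03% of all genes, 3 fell, against 6.43%, and 18 did not pass, with a median of -0.01 (0.014 over all genes). Traf5 read 157, 161 and 169 units in M0, 248, 213 and 262 in M1, and 569 and 521 in M2. Like Rel it was ordered M0, M1, M2, with M2 above M0 by 1.74 (limma adjusted p = 1.3e-06), while its dimmer probe set passed in neither comparison. Ikbkg also rose (0.58, limma adjusted p = 0.0055). Ikbke, an IκB kinase-related kinase of the interferon arm, read 1210, 1050 and 1200 units in M0, 778, 1060 and 928 in M1, and 370 and 364 in M2, a fall in M2 of -1.65 (adjusted p = 6.7e-06). The fall of Myd88 (-0.65, limma adjusted p = 0.0096) was lost without M2 replicate 1 (-0.51, adjusted p = 0.11) and with the limit of 64 units (adjusted p = 0.10), that of Tab2 (-0.52, adjusted p = 0.019) without M0 replicate 2 (-0.49, adjusted p = 0.069), M0 replicate 3 (-0.46, adjusted p = 0.069) or M2 replicate 1 (-0.36, adjusted p = 0.17). The rise of Btrc (0.42) was lost without M0 replicate 2 or 3 or either M2 array (0.38 to 0.47, adjusted p of up to 0.12), and that of Traf6 (0.41) without any 1 of the M0 or M2 arrays (0.37 to 0.45, adjusted p of up to 0.18).

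Genes listed as negative regulators outside the IκB family rose in M1 as well. Whether each of them restrains the pathway in these cells was not tested. Of 23 found of 24, 13 rose, against 13.7% of all genes, 2 fell, against 11.5%, and 8 did not pass. The median was 0.39. Traf1 read 51.7, 38.7 and 36.7 units in M0, at about the array medians, and 1290, 1090 and 1430 in M1. Its difference of 4.92 (limma adjusted p = 1.7e-09) was 4.30 with the limit of 64 units (adjusted p = 0.00059) and 2.53 on its other probe set (adjusted p = 3.1e-07). Further rises were those of Irak3 (2.27, adjusted p = 5.7e-08), whose product IRAK-M restrains Toll-like receptor signals, Tnfaip3 (2.30, adjusted p = 6.3e-07), which encodes the ubiquitin-editing enzyme A20, Usp18 (1.90, adjusted p = 2.4e-06), which removes the ubiquitin-like ISG15, Dusp1 (1.39, adjusted p = 4.4e-06), a MAP kinase phosphatase, and Zc3h12a (1.28, adjusted p = 8.5e-05), an RNase for cytokine transcripts. Otulin fell (-0.71, limma adjusted p = 0.0013), and the fall of Sigirr (-0.42, adjusted p = 0.013) was lost without M0 replicate 2 (-0.41, adjusted p = 0.054) or M0 replicate 3 (-0.37, adjusted p = 0.064). In M2 the list split, with 6 higher, against 8.03% of all genes, 6 lower, against 6.43%, and 11 not passed, and a median of -0.01. Irak3 read 406, 461 and 408 units in M0, 2000, 1870 and 2320 in M1, and 173 and 197 in M2. As with Nfkbiz, its 3 conditions did not overlap and M2 was lowest, with M2 minus M0 at -1.20 (limma adjusted p = 5.1e-05) and M1 minus M2 at 3.47 (adjusted p = 2.8e-09).

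Peli1 had the same pair of directions (1.07, limma adjusted p = 3.7e-05, and -0.76, adjusted p = 0.0023), as had Tnip1 (1.19, adjusted p = 1.4e-05, and -0.51, adjusted p = 0.024) and Nlrc5 (0.39, adjusted p = 0.044, and -1.23, adjusted p = 8.8e-05). Another Peli1 probe set passed in both directions too (0.86, limma adjusted p = 0.00014, and -0.96, adjusted p = 0.00032). The pair did not hold on the rest. On these, the rise in M1 did not pass (0.34, limma adjusted p = 0.29), the fall in M2 did not (-0.53, adjusted p = 0.11), or neither did (-0.01, adjusted p = 0.99, and -0.63, adjusted p = 0.058). The fall of Tnip1 was lost without M0 replicate 1 (-0.44, limma adjusted p = 0.081), M0 replicate 2 (-0.49, adjusted p = 0.083) or M2 replicate 1 (-0.40, adjusted p = 0.18), and the rise of Nlrc5 without any 1 array other than M0 replicate 1 (0.28 to 0.44, adjusted p of up to 0.21). Trafd1 (-1.04, limma adjusted p = 0.00037) and Pdlim2 (-0.93, adjusted p = 0.0014) fell in M2, the second not with the limit of 64 units (adjusted p = 0.056). The other probe set of Trafd1 did not pass in M2 (-0.10, limma adjusted p = 0.7). Traf1 (1.01, limma adjusted p = 0.0026) and Tnfaip3 (0.95, adjusted p = 0.0032) passed as higher in M2 too, but not on their other probe sets (0.28, adjusted p = 0.39, and 0.65, adjusted p = 0.073) or with the limit of 64 units (0.40, adjusted p = 0.35, and 0.95, adjusted p = 0.094). Otud7b (0.53, limma adjusted p = 0.024) was lost without M0 replicate 1 or 2 or M2 replicate 2 (0.32 to 0.49, adjusted p of up to 0.22), while its other probe sets passed as higher (0.57, adjusted p = 0.016, 0.52, adjusted p = 0.012, and 0.56, adjusted p = 0.0076). Of the other rises in M2, Zc3h12a (0.69) was lost without M0 replicate 2 or 3 or either M2 array (0.61 to 0.76, adjusted p of up to 0.16), Tollip (0.56) without M2 replicate 1 (0.45, limma adjusted p = 0.11) and N4bp1 (0.59) without M2 replicate 2 (0.45, adjusted p = 0.12).

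**Figure D4:**
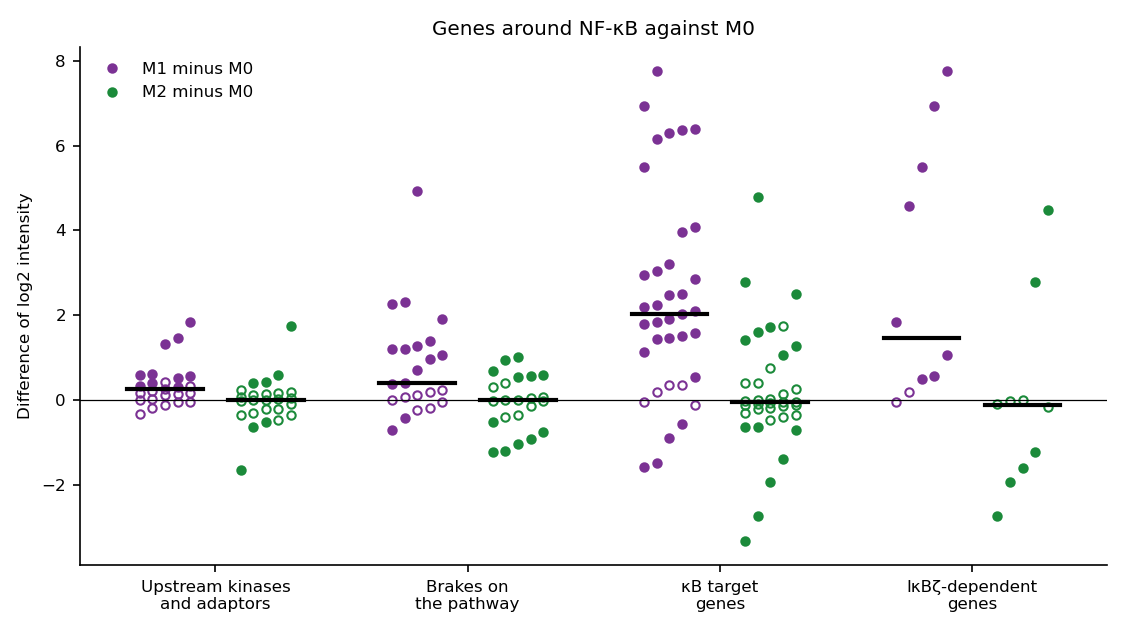
Difference of log2 intensity from M0 for the genes of 4 lists around NF-κB, in M1 (purple) and M2 (green), with each gene at its brightest probe set. Filled points passed at an adjusted p under 0.05, open points did not and black bars are medians; in M1 the medians are 0.25, 0.39, 2.03 and 1.45, and in M2 they are -0.01, -0.01, -0.05 and -0.13.

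Of the textbook NF-κB target genes, 37 of 38 were found. In M1 28 rose, against 13.7% of all genes, 4 fell, against 11.5%, and 5 did not pass, with a median of 2.03. Il1b, the interleukin 1β gene, rose by 6.39 (limma adjusted p = 1.7e-09) from 114, 96.6 and 104 units in M0 to 9840, 6390 and 10700 in M1. Of the cytokine and chemokine genes Il6 (7.77, limma adjusted p = 3.2e-07), Il12b (6.94, adjusted p = 3.9e-09), Cxcl3 (6.30, adjusted p = 1.6e-06) and Il1a (6.15, adjusted p = 3.1e-09), and of Ptgs2 (6.37, adjusted p = 1.6e-07), which encodes the inducible cyclooxygenase, all M0 values lay below the array medians, so the size and order of these rises are not settled. With the limit of 64 units they were 4.93, 4.94, 2.98, 5.07 and 4.05 and still passed (limma adjusted p = 0.011, 0.0022, 0.021, 0.0014 and 0.0097), and Il1b stood at 6.39. M1 replicate 2 was lowest of the M1 arrays for each of these genes, with Il6 at 753 units against 2880 and 3420, and without it the Il6 difference was 8.45 (limma adjusted p = 4e-08). The falls were those of Cd83 (-1.59, limma adjusted p = 2.6e-06), Myc (-1.48, adjusted p = 1.7e-05), Ccl4 (-0.90, adjusted p = 0.0088, and 0.16 with the limit of 64 units) and Bcl2l1 (-0.56, adjusted p = 0.0030). In M2 8 rose, against 8.03% of all genes, 7 fell, against 6.43%, and 22 did not pass, with a median of -0.05. Ccl22, a chemokine gene of the type 2 response, rose there by 4.79 (limma adjusted p = 2.7e-08, from M0 values at about the array medians, and 4.18 with the limit of 64 units). Other rises were those of Ier3 (2.50, adjusted p = 1.1e-06), Myc (1.71, adjusted p = 2.7e-05), Cd40 (1.60, adjusted p = 1.1e-05) and Cd83 (1.26, adjusted p = 9.1e-05). The rise of Il6 in M2 (2.77, limma adjusted p = 0.0050) was lost without M2 replicate 2 (2.00, adjusted p = 0.085) and was 3.54 without M2 replicate 1 (adjusted p = 0.0065), and that of Ptgs2 (1.42, adjusted p = 0.041) was lost without any 1 of the M0 or M2 arrays (1.07 to 1.77, adjusted p of up to 0.27). Neither passed with the limit of 64 units (0.35, limma adjusted p = 0.70, for Il6, and both groups at the limit for Ptgs2).

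Some target genes followed the opposite directions seen for Nfkbiz. Cxcl10, an interferon-induced chemokine gene, read 540, 287 and 418 units in M0, 2900, 3360 and 3630 in M1, and 34.7 and 45.5 in M2. Its M1 minus M0 was 3.03 (limma adjusted p = 4.2e-07) and its M2 minus M0 was -3.34 (adjusted p = 1e-06). The M2 values lay about the array medians, and with the limit of 64 units the fall was -2.65 (limma adjusted p = 0.012). Saa3, an acute phase gene (1.83, limma adjusted p = 3.5e-06, and -2.73, adjusted p = 6.4e-07), Tlr2, the receptor for bacterial lipoproteins (2.49, adjusted p = 7.3e-07, and -1.39, adjusted p = 0.00045), and Cflar, an inhibitor of cell death (1.78, adjusted p = 1.7e-07, and -0.70, adjusted p = 0.0015), did the same. Lcn2, which binds bacterial siderophores, did so too (5.50, limma adjusted p = 1.7e-07, and -1.94, adjusted p = 0.0033), with the fall lost without M2 replicate 1 (-1.46, adjusted p = 0.063) and with the limit of 64 units (-1.66, adjusted p = 0.15). That limit also ended the fall of Tlr2 (-1.39, limma adjusted p = 0.051) and that of Ccl5 (-0.65, adjusted p = 0.26). The fall of Ccl5 in M2 (-0.65, limma adjusted p = 0.034) was lost without M0 replicate 1 (-0.50, adjusted p = 0.11), M0 replicate 2 (-0.70, adjusted p = 0.060) or M2 replicate 1 (-0.34, adjusted p = 0.31), while it rose in M1 (1.14, adjusted p = 0.00023). Cd83 and Myc ran the other way, lower in M1 and higher in M2, and the Myc values were 179, 231 and 245 units in M0, 63.9, 86.8 and 83.6 in M1, and 772 and 648 in M2. For Cflar the pair of directions held on its brightest probe set only. Its fall in M2 did not pass on others (-0.32, -0.19 and 0.21, limma adjusted p = 0.38, 0.47 and 0.49). A further Cflar probe set fell in M2 (-0.54, limma adjusted p = 0.0091) without a rise in M1 (-0.05, adjusted p = 0.83).

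Genes known to need IκBζ were a short list of 10, of which Il6, Il12b, Lcn2, Csf2, Csf3 and Saa3 are also among the targets above. In M1 8 rose, against 13.7% of all genes, none fell, against 11.5%, and 2 did not pass, with a median of 1.45 (the methods' t-test also gave no fall). In M2 2 rose, against 8.03% of all genes, 4 fell, against 6.43%, and 4 did not pass, with a median of -0.13. The 4 that fell were Saa3, Lcn2, Ebi3 and Slc11a1. Ebi3, a subunit gene of IL-27, read 2050, 2290 and 2180 units in M0, 4360, 5680 and 3850 in M1, and 743 and 680 in M2 (M2 minus M0 -1.61, limma adjusted p = 1.8e-05). Slc11a1, a metal transporter of phagosomes, stood at 0.56 in M1 (limma adjusted p = 0.00093) and -1.24 in M2 (adjusted p = 8.8e-06). The list was not uniform, since Ccl17 read 43.2, 37.7 and 40.9 units in M0 and 728 and 1110 in M2, where Nfkbiz was lowest, and rose there by 4.47 (limma adjusted p = 6.4e-09), or 3.81 with the limit of 64 units (adjusted p = 0.0015). Ccl17 also counts among the 8 rises in M1 (0.50, limma adjusted p = 0.023), but all its M0 and M1 values lay under that limit. This rise was lost with the limit and without M0 replicate 2 or 3 or M1 replicate 1 or 3 (limma adjusted p of up to 0.098). Il12a rose in M1 (4.57, limma adjusted p = 9e-08, and 2.07, adjusted p = 0.021, with that limit) and stood at -0.16 in M2 (adjusted p = 0.79). Csf2 and Csf3 did not pass in either comparison.

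The genes whose levels over the 8 arrays were most like those of 4 members were taken from 1493 other genes that were bright and variable, by Pearson's r of log2 intensity. The 8 points are 3 conditions, so r mostly restates the order of the conditions and is given as a description. For Nfkb2 they were Inhba (0.997), Mgat4a (0.994) and Acpp (0.994), all highest in M1. For Relb they were Mvd (0.981), Cxcl16 (0.977) and Cxcl2 (0.963). For Nfkbie they were Acod1 (0.992), Cst7 (0.985) and Rasgrp1 (0.984), which like Nfkbie were high in both stimulated states: Cst7 averaged 315 units in M0, 2713 in M1 and 2104 in M2. For Nfkbiz they were Cd14 (0.994), Slc11a1 (0.992) and Gpr31b (0.991), which were lowest in M2. Gpr31b averaged 185 units in M0, 747 in M1 and 16.1 in M2.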

How the data were processed

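Intensities of 8 Affymetrix mouse expression arrays (3 M0, 3 M1, 2 M2) were analysed. The authors normalized the arrays with RMA in GenePattern and deposited intensity values per probe set on a linear scale; the annotation build is not given in the sources used here. From these, log2 values were taken, 64 control probe sets were left out and 45037 were tested with limma 3.58.1 in R 4.3.3 (lmFit and eBayes, all 8 arrays in one fit with a mean per condition, 5 residual degrees of freedom, prior 6.95). P-values were two-sided and adjusted by Benjamini-Hochberg over all probe sets, and a probe set passed at an adjusted p under 0.05. Intervals are 95% intervals of the fit, before adjustment. The number of arrays limits the precision.

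The annotation table gives 1 symbol to 34945 probe sets and several to 932, and 9160 are unnamed here. All probe sets of a member were described. List genes were counted by their brightest probe set, and the up to 6 largest rises and 4 largest falls of each list and comparison, with genes called in opposite directions, were named. Other named genes were chosen after their values were seen. Members and lists were chosen with earlier results of these data known, and list entries without a probe set are not analysed here. Promoter windows came from RefSeq (GRCm38.p6).

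The numbers WT1 to WT3 in the labels are not stated to be mice, so arrays were not paired. Deviations from the group means correlated at -0.172 to 0.0547 between arrays of the same number. Between arrays of different numbers the range was -0.15 to 0.19. Such deviations cancel out within a group, so these values depend on each other and cannot tell whether mice were shared. The alternatives tried were the t-test of the methods (log2 values, linear values), limma restricted to the pair of groups, a mean-variance trend with robust eBayes, a replicate block, arrays centred on their medians, a second quantile normalization, a limit of 64 units, a minimum mean log2 of 6, an adjusted p under 0.01, a 2-fold limit, the second brightest probe set and each array left out. The procedure was tested on simulated data. Plots used matplotlib 3.10.9 (Python 3.11.15).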

Additional observations from a re-analysis of the deposited data

How the results depend on the processing

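The 54 member tests were each repeated under up to 17 alternatives other than t-tests. Of 915 values, 890 stayed on the same side of the threshold, 24 no longer passed and 1 newly passed. No called value changed sign, while some values that did not pass did. M1 against M0 had 10 to 15 probe sets higher under every alternative. The term for the replicate number (replicate block), which is not stated to mark a mouse, kept 15 higher in M1 than in M0 and 12 in M1 than in M2. It lost the Relb difference between M1 and M2 (0.59, limma adjusted p = 0.06) and no other member call. With 1 M2 array left out, the other is assumed to vary like the other groups. The cause of the changes below was not tested.

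The methods' t-test on log2 values, adjusted, gave 1 member probe set higher and 1 lower in M2 than in M0, and 6 higher and 0 lower in M1 than in M2; on linear values it gave 1, 0, 4 and 0. The 2-fold limit left 0 lower in M1 than in M2. Without adjustment, a choice made after seeing the data, the log2 t-test lost 3 member calls.

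For the lists, counts that moved by over 1.5 times are given in the order upstream genes, negative regulators, targets and IκBζ-dependent genes. The t-test on log2 values gave, higher in M2 than in M0, 1, 0, 1 and 0, and lower 1, 0, 0 and 1; lower in M1 than in M0, 1 regulator and 2 targets; higher in M1 than in M2, 0, 8 and 12 for the first 3 lists, and lower 0, 0 and 2. On linear values it gave, higher in M1 than in M0, 5 upstream genes, 16 targets and 4 IκBζ-dependent genes, and lower 0 regulators and 2 targets; higher in M2 than in M0, 1, 0, 1 and 0, and lower 0 of each; higher in M1 than in M2, 0, 0, 4 and 2, and lower 0 upstream genes, 0 regulators and 0 IκBζ-dependent genes. The 2-fold limit left, higher in M1 than in M0, 3 upstream genes, and lower 0 regulators and 2 targets; higher in M2 than in M0, 1 upstream gene and 1 regulator, and lower 1, 3 and 4 for the first 3 lists; higher in M1 than in M2, 4 upstream genes and 9 regulators, and lower 0 regulators. Quantile normalization and the minimum mean log2 of 6 each called 1 upstream gene lower in M1 than in M0. An adjusted p under 0.01 left 2 upstream genes and 2 regulators higher in M2 than in M0, 1 regulator lower in M1 than in M0 and 2 regulators lower in M1 than in M2. The second brightest probe set left 2 upstream genes and 1 regulator higher in M2 than in M0, and 0 upstream genes and 1 regulator lower in M1 than in M2. The limit of 64 units left, higher in M2 than in M0, 0 regulators, 5 targets and 1 IκBζ-dependent gene, lower 1 upstream gene and 3 targets, and 1 regulator lower in M1 than in M2. The intensity trend left 5 targets and 1 IκBζ-dependent gene higher in M2 than in M0. Leaving out each array gave, higher in M2 than in M0, 2 to 4 upstream genes (lowest when M0 replicate 2 or 3 or M2 replicate 2 was dropped), 3 to 6 regulators and 1 to 2 IκBζ-dependent genes (lowest without M2 replicate 2); 0 to 1 upstream genes lower in M1 than in M0 (1 without M1 replicate 2) and 1 to 2 regulators (1 without M0 replicate 2 or M0 replicate 3); and 2 to 4 regulators lower in M1 than in M2 (2 without M2 replicate 2).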
